A study of Mus musculus with 44 samples.

Results

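The genes considered are Hsf1, the gene of the transcription factor that drives the heat shock response, and 9 genes of heat shock proteins. They were chosen by name as rows of the deposited gene table, 10 of 35269 rows, and all 10 passed the filter on low values that left 13338 genes for testing. Single-embryo RNA-seq was available for 44 mouse embryos at the two-cell stage. The study asked whether Dppa2 and Dppa4, a pair of nuclear proteins whose transcripts are present in the oocyte, are needed for zygotic genome activation (ZGA), the start of transcription after fertilisation.

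There were 14 Dppa2/4+/+ embryos from control females and Dppa2/4+/+ males (WT). There were 15 Dppa2/4+/- embryos from maternal knockout females and Dppa2/4+/+ males (HET1). Maternal knockout females crossed with Dppa2/4+/- males gave 5 Dppa2/4+/- embryos (HET2) and 10 Dppa2/4-/- embryos (HOM). In these females the conditional double allele was deleted by a Cre driven by Zp3 in growing oocytes, so HET1, HET2 and HOM embryos shared the maternal deletion. Each of the 3 crosses was represented by 2 litters, with 10 and 4 WT, 7 and 8 HET1, 4 and 1 HET2, and 3 and 7 HOM embryos, and HET2 and HOM embryos were littermates. Two-cell embryos came from natural matings and were collected at E1.5, on a C57Bl/6 background as far as the methods state it, and the ages of the parents were not given in the sources used here.

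Heat shock proteins are molecular chaperones, which hold, fold or refold other proteins. HSF1 is kept inactive by chaperones and, when unfolded proteins titrate these away, binds heat shock elements, inverted repeats of GAA, and raises transcription of the chaperone genes. The mouse oocyte stores Hsf1 product for the embryo, and the inducible HSP70 genes Hspa1a and Hspa1b are known among the earliest genes transcribed by the mouse zygote. The other family members act in separate compartments, the constitutive HSC70 (Hspa8) and the HSP90 pair (Hsp90aa1, Hsp90ab1) in the cytosol, BiP (Hspa5) in the endoplasmic reticulum, and HSP60 and HSP10 (Hspd1, Hspe1) in mitochondria.

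The region before the start of transcription was compared for the members with an entry in the RefSeq promoter table (GRCm38.p6), 6 of 10. The stretches below show where the letters of a heat shock element or of the endoplasmic reticulum stress element occur within 250 bases before the start. In each, the strand of the gene is written and capitals mark the matched motif.
Hspd1: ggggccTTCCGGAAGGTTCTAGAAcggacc
Hspe1: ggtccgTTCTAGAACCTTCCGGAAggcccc
Hspb1: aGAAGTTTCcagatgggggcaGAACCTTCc
Hspa1b: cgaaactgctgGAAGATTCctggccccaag
Hspa1a: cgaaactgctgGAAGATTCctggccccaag
Hspa5: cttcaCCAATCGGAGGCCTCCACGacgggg

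The Hspd1 and Hspe1 stretches are the 2 strands of chr1:55088053-55088082, since the 2 genes run away from each other from a shared promoter. This stretch lies in the untranslated part of an annotated Hspd1 exon in a transcript that starts further upstream. The Hspb1 stretch lies at chr5:135887801-135887830 (+), the Hspa1b stretch at chr17:34959324-34959353 (-) and the Hspa1a stretch at chr17:34972242-34972271 (-), all outside annotated genes. The Hspa5 stretch, chr2:34772020-34772049 (+), lies in the untranslated part of the first exon of an Hspa5 transcript with an upstream start.

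The pair GAANNTTC, which reads the same on both strands, was present in 5 of the 6 members and in 6.69% of 32851 promoters of the same length. Hspd1 has 2 start sites in the table, and its matches lie before the downstream one, while the 250 bases before the upstream one held 0 matches to any motif searched. The pair TTCNNGAA, also the same on both strands, was present in 7.17% of them. A run of 3 units, in which the 2 pairs overlap by a shared GAA or TTC, searched on both strands, was present in Hspd1 (before its downstream start) and Hspe1 and in 0.47% of all promoters. The endoplasmic reticulum stress element, CCAAT and CCACG with 9 bases between them, searched on both strands, was present in Hspa5 and in 0.113% of all promoters. In the 250 bases before the start, Hspa1a and Hspa1b were identical at 247 positions. These matches describe letters only, and no binding was measured.

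In GENCODE for GRCm38, Hsf1 lies at chr15:76477422-76501913 (+), Hspa1b at chr17:34956436-34959238 (-) and Hspa1a at chr17:34969190-34972156 (-), with 9951 bp between the last 2. Hspa5 lies at chr2:34771970-34777547 (+), Hspa8 at chr9:40800984-40810087 (+), Hsp90aa1 at chr12:110690605-110702728 (-) and Hsp90ab1 at chr17:45567775-45573271 (-). Hspd1 lies at chr1:55077835-55088243 (-), Hspe1 at chr1:55088132-55091307 (+) and Hspb1 at chr5:135887919-135889563 (+). Hspd1 and Hspe1 overlap by 112 bp on opposite strands and Hspa1a overlaps the annotated gene Gm20481 by 2225 bp on the opposite strand, and reads were counted without regard to strand.

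Several members have near-identical copies. Of the stretches of 75 bases, the read length, in the annotated transcripts of each gene, 61.7% for Hspa1a, 55.8% for Hspa1b, 46.4% for Hspb1, 42.8% for Hsp90aa1, 33.0% for Hspa8, 31.0% for Hspd1 and 14.6% for Hspe1 also occur in a transcript of another gene. These other genes include the annotated pseudogenes Hspd1-ps3 for Hspd1 and Hsp25-ps1 for Hspb1. The share was 0.537% for Hsp90ab1 and 0 for Hsf1 and Hspa5. For the pair, 75.3% of the coding stretches of Hspa1b occur in the coding sequence of Hspa1a, and none of those after its stop codon occur in Hspa1a. Reads were kept only at a MAPQ of at least 20, and whether reads of these shared stretches were lost or split was not tested.

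Total reads per embryo ranged from 247667 to 3163026, with medians of 1770010 in WT, 528166 in HET1, 1108889 in HET2 and 803369 in HOM. Dppa2 was found at 184 to 2144 reads per WT embryo, 11 to 489 in HET1, 19 to 814 in HET2 and 0 to 7 in HOM, and Dppa4 at 79 to 499, 3 to 133, 27 to 94 and 0 to 5 (HET2 and HOM had been told apart by the authors from these transcripts, so they check nothing between those groups). Of the marker genes, 8 of 8 for the two-cell stage and 8 of 8 for the oocyte had a median of at least 1 read, against 0 of 7 for cumulus cells, 0 of 5 for sperm, 0 of 5 for blood and 1 of 5 for oviduct. The summed oviduct markers ranged from 66.1 to 1632 RPM (an embryo's reads for a gene, scaled to its total) in WT, 17.7 to 147 in HET1, 44 to 88.8 in HET2 and 51.9 to 174 in HOM. The highest value came from Ovgp1 in a WT embryo of the second litter, and results are given without that litter where it ends a call. RPM is a share of an embryo's reads, so fewer transcripts of a gene and more RNA from other genes cannot be told apart.

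Per kilobase of annotated exon, the HSP90 genes and BiP led in WT embryos. The median level was 150 RPM per kb for Hsp90aa1, 114 for Hsp90ab1 and 83.5 for Hspa5, followed by 22.1 for Hspa8, 18.4 for Hspd1, 17.2 for Hspe1 and 13.4 for Hspb1. Hsf1 stood at 5.66 RPM per kb, and the inducible pair was lowest, with 2.07 for Hspa1a and 1.52 for Hspa1b. The length merged the exons of all annotated transcripts, 7099 bp for Hsf1, 2967 for Hspa1a and 2803 for Hspa1b. Any loss of reads in stretches shared with other genes was not corrected. Of the neighbours in this order, only Hspa5 and Hspa8 were separated without overlap, from 44.5 to 192 RPM per kb against 7.05 to 40.9. Hsf1 exceeded Hspa1a in 13 of 14 embryos. The other neighbours were ordered that way in 7 to 10 of 14 embryos, so their order lay within the spread.

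**Figure D1:**
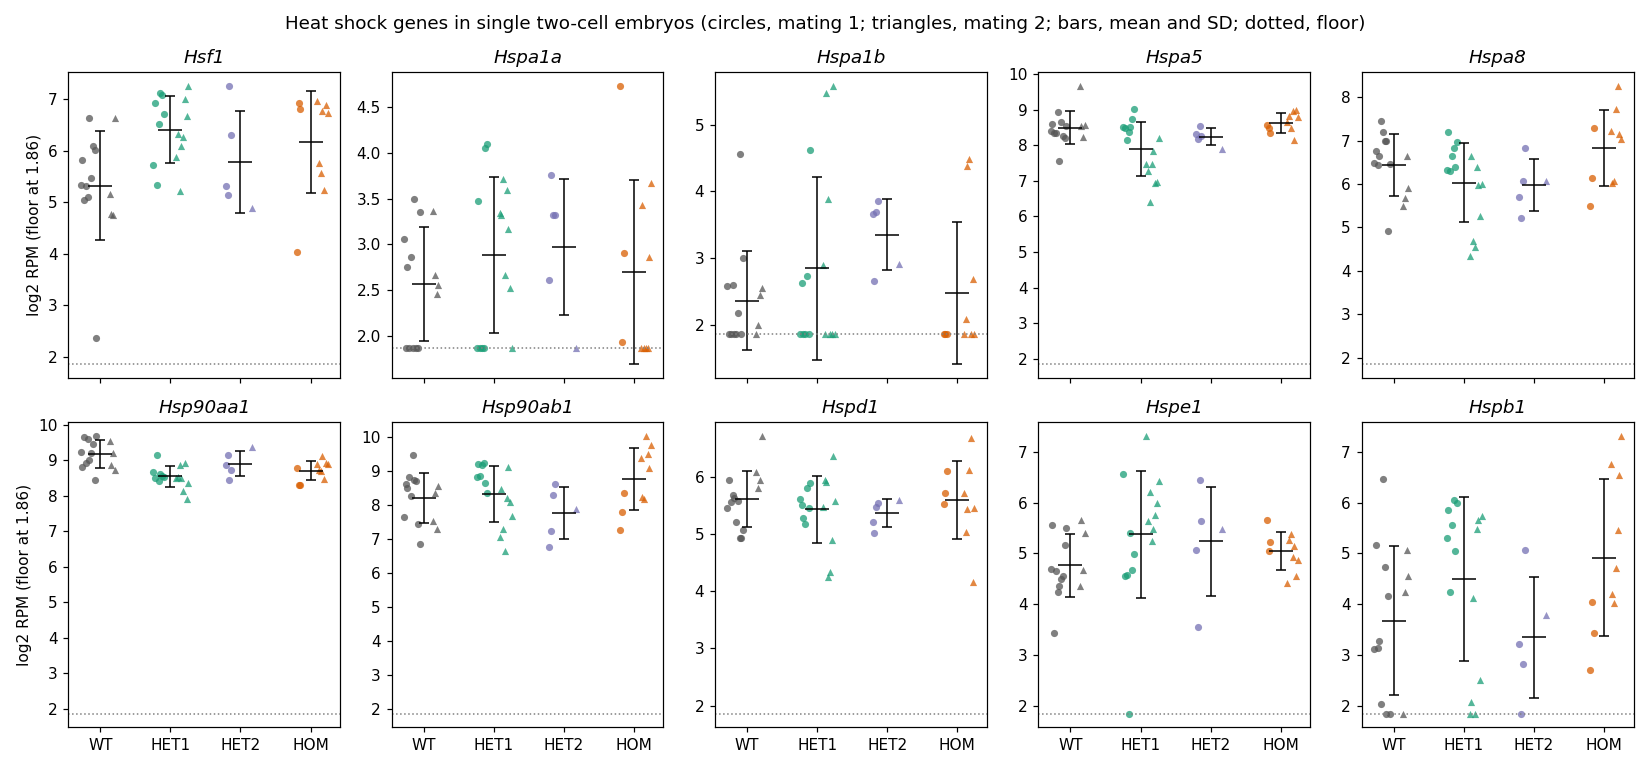
Level of each of the 10 genes in each embryo (y axis, log2 RPM with values under 1.86 raised to 1.86, a separate scale in each panel) by group (x axis); circles are the litter of mating 1, triangles the litter of mating 2, bars the mean and SD, and the dotted line the floor. All groups overlap for every gene, Hsp90aa1 is lower in all 15 HET1 embryos than the WT mean, and Hspa1a and Hspa1b reach the floor in many embryos.

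Hsf1 transcripts were present in every embryo, at 7 to 165 reads. Values below are log2 RPM, in which genes with few reads were raised to a common floor of 1.86, the value given to a gene without reads in the shallowest embryo. Hsf1 ranged in WT from 2.36 over a median of 5.33 to 6.64, in HET1 from 5.22 over 6.52 to 7.26 and in HOM from 4.04 over 6.75 to 6.96. In the 5 HET2 embryos it was 5.31, 5.14, 7.26, 6.30 and 4.89. The ranges overlapped, although 14 of 15 HET1 embryos and 8 of 10 HOM embryos lay above the WT mean, against 2 of 5 HET2 embryos.

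Hsf1 was higher in HET1 than in WT by 1.08 on the log2 scale (SE 0.33, limma adjusted p = 0.034), a 2.12-fold difference between means of 6.41 ± 0.65 (SD, n = 15) and 5.32 ± 1.05 (SD, n = 14). The 2 HET1 litters had means of 6.49 and 6.33 and the 2 WT litters means of 5.32 and 5.33. The call ended when log2 total reads entered the model (difference 0.37, adjusted p = 0.70), and also with litter as a random effect (1.09, adjusted p = 0.61) or without any of the 4 litters (adjusted p from 0.054 to 0.29, and 0.054 without the second WT litter). With total reads or random litter effects, 0 of all 13338 genes were called. The targeted genes Dppa2 (-1.99, limma adjusted p = 0.00020 without these terms) and Dppa4 (-1.63, adjusted p = 0.0013) thus lost their calls too.

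Hsf1 was lower in embryos with more reads. The median number of Hsf1 reads was 82.5 in WT and 57 in HET1, 1.45 times lower, while median total reads were 3.35 times lower. Across the 44 embryos, with the mean of each group within each litter removed, Hsf1 and log2 total reads had Pearson's r of -0.51 (permutation p = 0.00052, adjusted over the 10 members 0.0052) and Spearman's rho of -0.60 (permutation p = 0.0001, adjusted 0.001). Without the 2 embryos farthest from the median depth r was -0.48. Within WT and HET1 embryos alone, with litter means not removed, r was -0.35 and -0.67. Of 6919 genes with a mean of at least 3 log2 RPM, 2.07% had an r as low. The relation was computed after the effect of depth on the call had been seen.

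**Figure D2:**
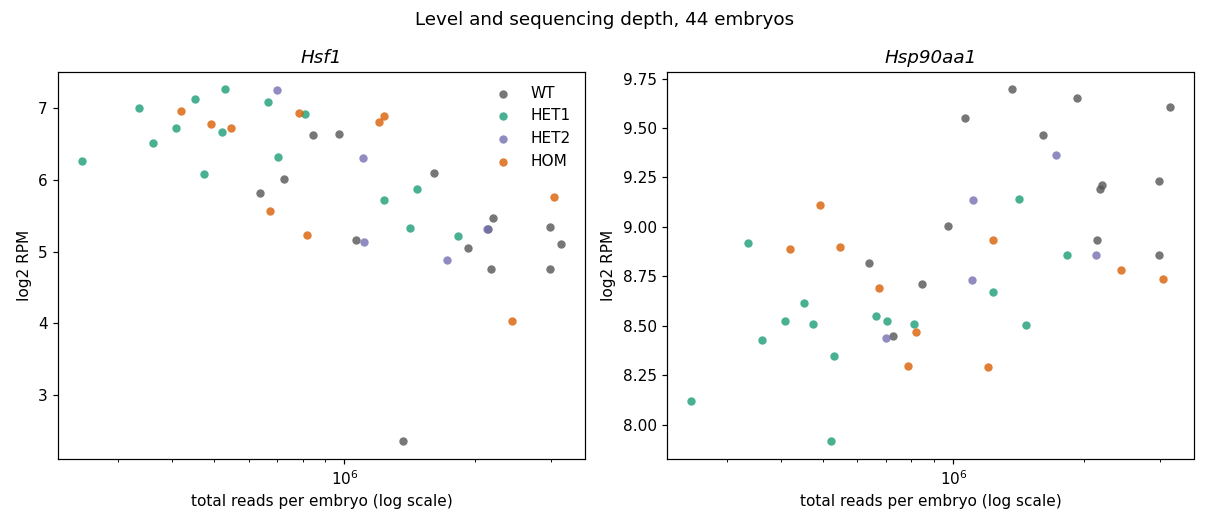
Level of Hsf1 and Hsp90aa1 (y axes, log2 RPM) against total reads (x axis, log scale) in 44 embryos, each point an embryo coloured by group. The HET1 embryos are mostly at the left, Hsf1 falls with depth (r = -0.51 within group and litter) and Hsp90aa1 tends upwards (r = 0.38).

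For the other members no relation with depth passed the threshold after adjustment. For Hsp90aa1, r was 0.38 (permutation p = 0.020, adjusted 0.074) and rho 0.40 (adjusted 0.056), for Hspb1 r was -0.38 (adjusted 0.074) and rho -0.40 (adjusted 0.056), and for Hsp90ab1 r was -0.36 (adjusted 0.074) and rho -0.33 (adjusted 0.11). The remaining 6 members had r between -0.24 and 0.27 and adjusted p of at least 0.20.

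Hsp90aa1, the HSP90 isoform that is stress-inducible in most tissues, ranged in WT from 8.45 over a median of 9.20 to 9.69, in HET1 from 7.92 over 8.52 to 9.14 and in HOM from 8.29 over 8.76 to 9.11. In HET2 it was 8.86, 9.14, 8.44, 8.73 and 9.36. The ranges overlapped, but all 15 HET1 and all 10 HOM embryos and 4 of 5 HET2 embryos lay below the WT mean.

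Hsp90aa1 was lower in HET1 than in WT by 0.63 on the log2 scale (difference -0.63, SE 0.15, adjusted p = 0.0074), with means of 8.54 ± 0.30 (SD, n = 15) and 9.17 ± 0.39 (SD, n = 14). With total reads in the model the difference was -0.46 (adjusted p = 0.23), with litter as a random effect -0.61 (adjusted p = 0.39), without the second HET1 litter -0.54 (adjusted p = 0.12) and without the first WT litter -0.53 (adjusted p = 0.29). The models with total reads and with random litter effects called 0 of all 13338 genes. In HOM against WT it was -0.46 (SE 0.17, adjusted p = 0.16), and the HET1 and HOM values share the WT embryos. Among the 10 members its spread within groups was the lowest relative to genes of the same level, with an SD of 0.33 against 0.57 on the trend of all genes.

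These were the only members called in HET1 against WT. Of the 10 members, 2 were called (6.51% of all genes were), 1 higher (3.67% of all genes) and 1 lower (2.83%). With only genes at a mean of at least 3 log2 RPM, 15.1% of 6919 genes and 3 of the 8 members tested were called, Hspa5 being the third. The median difference was 0.22 over the members and 0.10 over all genes tested. With each embryo centred on its own median, which turned the split of all calls from 490 higher and 378 lower to 446 and 662, the differences were 0.90 for Hsf1 (adjusted p = 0.028) and -0.81 for Hsp90aa1 (adjusted p = 0.0084), and Hspa5 was called too (-0.78, adjusted p = 0.020).

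**Figure D3:**
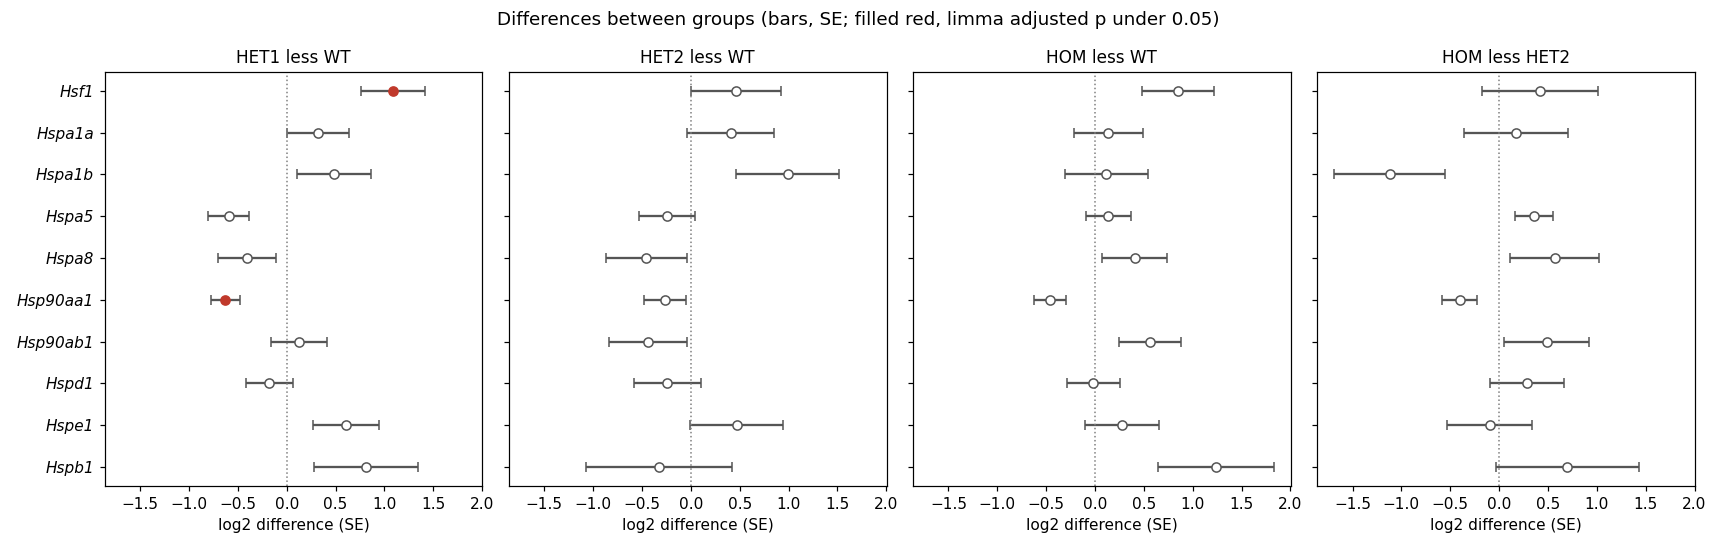
Log2 difference of each gene (x axis, bars give the SE) in HET1, HET2 and HOM against WT and in HOM against HET2; filled red points have a limma adjusted p under 0.05. Only Hsf1 (1.08) and Hsp90aa1 (-0.63) in HET1 against WT are filled.

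Hsp90ab1, the constitutive HSP90 isoform, was called in no comparison of groups. It ranged in WT from 6.85 over 8.42 to 9.47, in HET1 from 6.64 over 8.45 to 9.23 and in HOM from 7.26 over 8.71 to 10.03, and was 6.76, 7.23, 8.30, 8.60 and 7.87 in HET2. The groups overlapped widely. Differences from WT were 0.12 (adjusted p = 0.84) in HET1, -0.44 (0.79) in HET2 and 0.56 (0.36) in HOM. Its spread within groups was 1.37 times that of genes of the same level, the highest ratio among the members.

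The inducible HSP70 genes were near the limit of detection. Hspa1a had 0 to 65 reads and Hspa1b 0 to 81, with no read in 7 and 10 of the 44 embryos and at least 3 reads in 31 and 26. A count of 0 allows up to 3 reads, which is 0.948 RPM in the deepest embryo and 12.1 RPM in the shallowest. In WT the lowest, median and highest counts were 0, 11.5 and 25 reads for Hspa1a and 0, 7.5 and 38 for Hspa1b, in HET1 they were 0, 3 and 24 and 0, 1 and 81, and in HOM 0, 5 and 65 and 0, 4.5 and 14. In HET2 Hspa1a had 13, 15, 7, 11 and 3 reads and Hspa1b 27, 7, 9, 16 and 13.

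All 5 HET2 embryos thus held both transcripts, and their Hspa1b values, 2.66 to 3.86 log2 RPM, lay above the WT mean of 2.37 ± 0.74 (SD, n = 14), within the WT range. The differences in Hspa1b were 0.99 (SE 0.53, adjusted p = 0.58) in HET2 against WT and -1.12 (SE 0.57, adjusted p = 0.85) in HOM against HET2. For Hspa1a the differences from WT were 0.32 in HET1, 0.41 in HET2 and 0.14 in HOM, each with an adjusted p of at least 0.59. None of these differences passed the test.

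No relation was detected within the inducible pair. With group and litter means removed, Hspa1a and Hspa1b had r of -0.0020 and rho of -0.0029 over 44 embryos (permutation p = 0.99 for both, adjusted 0.99, r without the 2 extreme embryos -0.12). Hsf1 had r of -0.29 with Hspa1a (permutation p = 0.11, adjusted over 5 relations 0.27, rho -0.21, adjusted 0.36, r without the 2 extreme Hsf1 embryos -0.11) and -0.059 with Hspa1b (permutation p = 0.68, adjusted 0.84, rho 0.0029, r without the 2 extreme embryos -0.011). Hspd1 and Hspe1, divergent genes of a single chaperonin, had r of 0.25 (permutation p = 0.037, adjusted 0.18, rho 0.26, adjusted 0.36, r without the 2 extreme embryos 0.25). Hsp90aa1 and Hsp90ab1 had r of -0.16 (permutation p = 0.37, adjusted 0.61, rho -0.25, adjusted 0.36, r without the 2 extreme embryos -0.27). None of the 5 relations passed the threshold after adjustment.

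With group and litter means removed, the genes whose level was most like that of Hsf1 over the 44 embryos, among 6918 genes with a mean of at least 3 log2 RPM, were Creld2 (r = 0.84), a secreted protein of the endoplasmic reticulum stress response, Smagp (0.84), a small membrane protein, and Mindy1 (0.83), a deubiquitinase. For Hspa1b the highest values were only 0.45 for Zfp948, 0.45 for Cenpk and 0.44 for Sap18b. These points share library and depth, and Creld2 had means of 6.41 ± 1.04 (SD, n = 14) in WT, 7.05 ± 0.76 (SD, n = 15) in HET1, 6.94 ± 0.79 (SD, n = 5) in HET2 and 7.45 ± 0.61 (SD, n = 10) in HOM. Its highest group mean was thus in HOM, whereas that of Hsf1 was in HET1 (6.41, against 6.17 in HOM). Smagp and Mindy1 were highest in HET1, as Hsf1 was. Smagp had means of 5.12 in WT, 7.13 in HET1, 6.62 in HET2 and 6.27 in HOM. Those of Mindy1 were 6.62, 7.73, 7.39 and 7.54, and the SDs of the 2 genes lay between 0.55 and 2.13.

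With the main settings (all genes tested, all embryos, no centring) Hspa5 and Hspa8 were called between the HET1 litters and not between groups. Hspa5 was called in HET1 against WT with the other settings given above. Hspa5, which folds secreted proteins and restrains the unfolded protein response, ranged in WT from 7.56 over 8.46 to 9.67, in HET1 from 6.41 over 8.14 to 9.02 and in HOM from 8.15 over 8.61 to 9.00, and was 8.31, 8.18, 8.55, 8.27 and 7.90 in HET2. In HET1 10 of 15 embryos lay below the WT mean, 6 of them below the WT range, and the difference was -0.60 (SE 0.21, adjusted p = 0.069). Without the first HET1 litter it was -1.17 (adjusted p = 7.5e-05), and without the second it was 0.056 (adjusted p = 0.91).

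Hspa8, the constitutive HSP70 of the cytosol, ranged in WT from 4.92 over 6.57 to 7.46, in HET1 from 4.35 over 6.32 to 7.20 and in HOM from 5.50 over 7.09 to 8.27, and was 5.71, 5.21, 6.07, 6.84 and 6.07 in HET2. Its differences from WT were -0.40 (adjusted p = 0.45) in HET1, -0.46 (0.79) in HET2 and 0.41 (0.55) in HOM. The groups overlapped in each case.

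No difference between groups passed the test for the mitochondrial pair. Hspd1 ranged in WT from 4.92 over 5.60 to 6.71, in HET1 from 4.25 over 5.51 to 6.37 and in HOM from 4.16 over 5.61 to 6.68, with 5.21, 5.02, 5.47, 5.53 and 5.59 in HET2, and its differences from WT lay between -0.24 and -0.016. Hspe1 ranged in WT from 3.44 over 4.66 to 5.66, in HET1 from 1.86 over 5.47 to 7.31 and in HOM from 4.43 over 5.10 to 5.66, with 5.07, 3.55, 6.45, 5.64 and 5.48 in HET2. Its difference in HET1 against WT was 0.61 (SE 0.34, adjusted p = 0.29).

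Hspb1, a small heat shock protein that holds unfolded proteins without ATP, was the most variable member, with a within-group SD of 1.51. It ranged in WT from 1.86 over 3.72 to 6.47, in HET1 from 1.86 over 5.31 to 6.06 and in HOM from 2.71 over 4.46 to 7.31, and was 3.23, 1.86, 2.84, 5.07 and 3.80 in HET2. Differences from WT were 0.81 (SE 0.53, adjusted p = 0.38) in HET1 and 1.24 (SE 0.59, adjusted p = 0.28) in HOM, with all groups overlapping.

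No member was called in HOM or HET2 against WT, or in HOM against HET2. In HOM against WT 0 of 10 were called by limma (0.045% of all genes, 6 in number) and 0 by voom on the recovered reads, with 3 at an unadjusted p under 0.05, namely Hsf1, Hsp90aa1 and Hspb1. The Hsf1 difference was 0.85 (SE 0.37, adjusted p = 0.23). The median was 0.21 over the members and 0.17 over all genes. In HET2 against WT 0 of 10 were called (0.0375% of all genes), 0 by voom and 0 at an unadjusted p under 0.05.

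Among littermates, in HOM against HET2 with litter in the model, 0 of 10 were called (0.015% of all genes, which were Dppa2 and Dppa4) and 0 by voom, with 1 at an unadjusted p under 0.05. That was Hsp90aa1, at -0.41 (SE 0.18, adjusted p = 0.85). Of the HOM embryos 8 of 10 lay below the HET2 mean. Only 1 HET2 embryo came from the second litter, so this comparison rests mostly on the first.

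More members were called between the HET1 litters than in any comparison of groups. Between the HET1 litters 4 of 10 members were called (21.9% of all genes), 1 higher in the second litter (6.46% of all genes) and 3 lower (15.4% of all genes). The targeted genes Dppa4 (-1.79, limma adjusted p = 0.00021) and Dppa2 (-1.56, adjusted p = 0.00028) were lower in the second litter too. With only genes at a mean of at least 3 log2 RPM, 35.5% of 6919 genes and 5 of the 8 members tested were called, Hspb1 being the fifth. Hspa5 ranged from 8.14 over 8.50 to 9.02 in the first litter and from 6.41 over 7.36 to 8.20 in the second, with 7 of 8 embryos of the second below the first litter's range, a difference of -1.22 (SE 0.23, adjusted p = 0.00010). Hspa8 ranged from 6.29 over 6.64 to 7.20 and from 4.35 over 5.62 to 6.64, a difference of -1.18 (SE 0.37, adjusted p = 0.016). Hsp90ab1 ranged from 8.35 over 8.85 to 9.23 and from 6.64 over 7.87 to 9.11, a difference of -1.08 (SE 0.34, adjusted p = 0.017).

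Hspe1 ran the other way. It ranged from 1.86 over 4.68 to 6.56 in the first HET1 litter and from 5.25 over 5.87 to 7.31 in the second, a difference of 1.34 (SE 0.44, adjusted p = 0.022), with all 8 embryos of the second litter above the first litter's mean and the ranges overlapping. Hspb1 fell just short (-1.77, SE 0.67, adjusted p = 0.0502). Hsf1 (-0.15) and Hsp90aa1 (-0.17), the members called against WT, had adjusted p of 0.86 and 0.58 between these litters. With each embryo centred on its median the differences were -0.87 for Hspa5, -0.83 for Hspa8, -0.74 for Hsp90ab1 and 1.68 for Hspe1, each with an adjusted p of at most 0.041, and the calls over all genes moved from 861 higher and 2059 lower to 1380 and 1383.

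**Figure D4:**
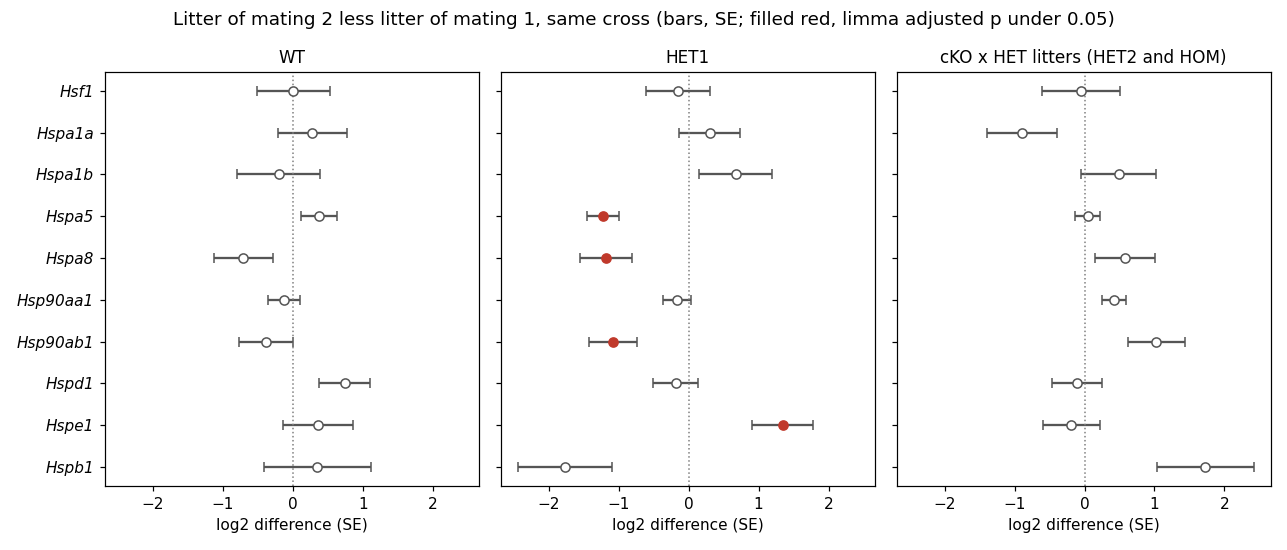
Log2 difference between the litter of mating 2 and the litter of mating 1 within each cross (x axis, bars give the SE) for the 10 genes; filled red points have a limma adjusted p under 0.05. Only the HET1 litters have filled points, with Hspa5, Hspa8 and Hsp90ab1 lower and Hspe1 higher in the second litter.

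In the other crosses 0 of 10 members were called between litters. For WT this compares with 1.75% of all genes, with 0 members called by voom and 0 at an unadjusted p under 0.05. For the litters of Dppa2/4+/- males, with genotype in the model, it compares with 5.15% of all genes, with 0 members called by voom and 3 at an unadjusted p under 0.05. These were Hspb1 (1.73, SE 0.69), Hsp90ab1 (1.03, SE 0.41) and Hsp90aa1 (0.42, SE 0.17), with adjusted p of 0.15, 0.15 and 0.16. The sources used here do not say how embryos were batched, and litter and anything handled with it cannot be told apart.

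The wider chaperone network was read from 8 lists with 116 genes, of which 101 were tested. In HET1 against WT 16 were called, 15.8% of those tested against 6.51% of all genes, with 4 higher (3.67% of all genes) and 12 lower (2.83%). With only genes at a mean of at least 3 log2 RPM, 18 of 81 were called, 22.2% against 15.1% of all such genes. The median difference was -0.03 over the lists and 0.10 over all genes, and the members of the lists were chosen with earlier results of these data known. With total reads in the model 0 of all 13338 genes were called by limma (1706 had an unadjusted p under 0.05), against 1074 by voom on the recovered reads without that term. With litter as a random effect 0 of them were called either (1010 at an unadjusted p under 0.05), and without the second HET1 litter 5 were.

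HSP90 co-chaperones, which load clients or set the ATPase cycle, split into 3 higher and 3 lower of 15, beside 3.67% and 2.83% of all genes. Among genes with a mean of at least 3 log2 RPM, 6 of 12 were called, beside 15.1%. Ahsa1, the activator of the HSP90 ATPase, rose from 5.07 ± 1.12 (SD, n = 14) to 6.45 ± 1.06 (SD, n = 15), an increase of 1.38 (adjusted p = 0.013). Ptges3 (p23), which holds HSP90 in its closed form, fell from 9.55 ± 0.41 to 8.43 ± 0.38 (difference -1.12, adjusted p = 0.00013), and the adaptor Sugt1 (-1.17, adjusted p = 0.0045) and the prolyl isomerase Ppid (-1.43, adjusted p = 0.015, and -1.75 between the HET1 litters) fell too. Stip1, which joins HSP70 to HSP90, differed by 0.38 (adjusted p = 0.47).

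The chaperonin TRiC and its partner prefoldin, which fold actin and tubulin, had 0 higher and 4 lower of 14, beside the 2.83% of all genes that were lower. Among genes with a mean of at least 3 log2 RPM, 4 of 13 were called, beside 15.1%. Cct8 (-1.16, adjusted p = 0.00050), Tcp1 (-0.97, adjusted p = 0.014) and the prefoldin subunit Vbp1 (-1.31, adjusted p = 0.0097) were among them. The cytosolic HSP70 family and its exchange factors were near the share of all genes called (6.51%), with 0 higher and 1 of 16 lower (6.25%), the exchange factor Hspa4 (-1.33, adjusted p = 0.0094, and -2.02 between the HET1 litters), while St13 (0.13) and Hspa14 (0.14) had adjusted p of at least 0.78. Of the J-domain proteins, which stimulate HSP70, 0 rose and 1 of 13 fell (7.69%, also near that share), Dnajc2 (-1.87, adjusted p = 0.0032, and -2.24 between the HET1 litters), and Dnaja1 (-0.62), Dnaja2 (-0.22) and Dnajc21 (-0.41) had adjusted p of at least 0.066. Among genes with a mean of at least 3 log2 RPM, 1 of 12 of the HSP70 list (8.33%) and 2 of 12 of the J-domain list (16.7%) were called, beside 15.1%. The second J-domain gene called there was Dnaja1 (limma adjusted p = 0.039).

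Of the chaperones of the endoplasmic reticulum and the unfolded protein response 0 rose and 2 of 21 fell (9.52%). Of all genes 2.83% were lower and 6.51% were called in either direction. Among genes with a mean of at least 3 log2 RPM it was 2 of 17 (11.8%, beside 15.1%). These were the disulfide isomerase Pdia3 (-1.19, adjusted p = 0.0021) and Dnajb9 (-0.67, adjusted p = 0.037), a co-chaperone of BiP, whereas the lectin chaperone Canx differed by -0.45 (adjusted p = 0.17). Of the mitochondrial chaperones and proteases 2 of 13 were called, beside 6.51% of all genes, and 2 of 11 (18.2%, beside 15.1%) among genes with a mean of at least 3 log2 RPM. Of these 1 rose, the protease subunit Afg3l2 (1.61, adjusted p = 0.016), and 1 fell, the inner membrane protease Yme1l1 (-1.49, adjusted p = 0.00066), while the mitochondrial HSP70 Hspa9 (-0.39) and Clpx (-0.74) had adjusted p of at least 0.13.

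Of the 7 tested heat shock factors and HSF1 regulators 0 were called by limma, beside 6.51% of all genes, and 0 of 9 by voom, with 2 of the 7 at an unadjusted limma p under 0.05. Among genes with a mean of at least 3 log2 RPM, 1 of 4 was called, beside 15.1%, namely Sirt1 (adjusted p = 0.046). In the fit of all genes Hsbp1, the HSF1-binding protein, was at 0.86 (adjusted p = 0.10), the deacetylase Sirt1 at -0.74 (adjusted p = 0.076) and Hsf2 at -0.60 (adjusted p = 0.41). The small heat shock proteins had only 2 of 9 tested, Hspb6 and Hspb11, both near the floor and not called (differences 0.19 and -0.13, adjusted p of at least 0.67). In HOM against WT, HET2 against WT and HOM against HET2, 0 of the 101 genes were called by limma, where 0.045%, 0.0375% and 0.015% of all genes were. By voom 0 of 105 were called in each. At an unadjusted limma p under 0.05 there were 35 of the 101 in HOM against WT (34.7%, against 16.5% of all genes), 13 in HET2 against WT (12.9%, against 9.01%) and 7 in HOM against HET2 (6.93%, against 4.81%). Most of the listed genes (81 of the 101) had a mean of at least 3 log2 RPM. Among all 6919 genes at that level, 1454, 842 and 395 had such a p in these comparisons, in the same order. The listed genes with such a p were not counted at that level.

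Between the HET1 litters 26 of the 101 were called, 25.7% against 21.9% of all genes, with 2 higher (6.46% of all genes) and 24 lower (15.4%) in the second litter. With only genes at a mean of at least 3 log2 RPM it was 30 of 81, 37.0% against 35.5% of all such genes. By list, 8 of 14 TRiC and prefoldin genes, 6 of 13 mitochondrial, 5 of 16 HSP70, 4 of 13 J-domain, 2 of 15 HSP90 co-chaperone and 1 of 21 endoplasmic reticulum genes were called, all lower but for 1 HSP70 and 1 J-domain gene, and 0 of 7 heat shock factors and regulators (1 at an unadjusted limma p under 0.05, 0 of 9 called by voom) and 0 of 2 small heat shock proteins (0 at an unadjusted p under 0.05, 0 of 3 called by voom). With only genes at a mean of at least 3 log2 RPM, the called shares were 66.7% (8 of 12, 2 higher and 6 lower) for HSP70, 61.5% (8 of 13) for TRiC, 54.5% (6 of 11) for the mitochondrial list, 33.3% (4 of 12) for J-domain proteins, 16.7% (2 of 12) for HSP90 co-chaperones, 11.8% (2 of 17) for the endoplasmic reticulum and 0 of 4 for heat shock factors, against 35.5% of all such genes. The medians there were -0.90 for HSP70, -1.02 for TRiC and -1.04 for the mitochondrial list, against -0.38 over all such genes. Of the genes named above as lower in HET1 than in WT, 7 were also lower in the second HET1 litter than in the first. These were Dnajc2 (-2.24, adjusted p = 0.00029), Hspa4 (-2.02, 6.4e-06), Ppid (-1.75, 0.0031), Tcp1 (-1.35, 0.00013), Pdia3 (-1.25, 0.00063), Yme1l1 (-1.04, 0.010) and Cct8 (-0.83, 0.0090), and for Dnajc2, Hspa4, Ppid, Tcp1 and Pdia3 the difference between these litters exceeded that between HET1 and WT. Ptges3 (-0.17), Sugt1 (-0.67), Vbp1 (-0.08) and Dnajb9 (0.21) had adjusted p of at least 0.12 between the HET1 litters. Between the litters of Dppa2/4+/- males 5 of 101 were called (4.95%, against 5.15% of all genes), 4 higher and 1 lower. Between the WT litters 1 was (0.990%, against 1.75% of all genes), Hspa13, at 2.61 (adjusted p = 0.00022).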

How the data were processed

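Each two-cell embryo gave a Smart-seq2 library that was sequenced with paired 75 bp reads. Trimming by the authors used Trim Galore 0.6.5 with cutadapt 2.3 and mapping used HISAT2 2.1.0 on GRCm38. Reads under a MAPQ of 20 had been dropped, and 35269 SeqMonk mRNA probes were counted with no use of strand. The deposited values are log2 RPM, in which a gene without reads holds the value of 0.9 read. Whole reads could be recovered, with 99.9992% of values within 0.05 of a whole read, and no 2 columns were identical.

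Groups and litters were taken from the labels. Values under 1.86, that of no reads in the shallowest embryo, were raised to it. Genes with a deposited mean of at least 0 log2 RPM that exceeded this floor in at least 5 embryos, 13338 in all, were tested with limma 3.58.1 (R 4.3.3, moderated variances with a trend), and p-values were adjusted by Benjamini-Hochberg over them with a threshold of 0.05. Comparisons with WT used 1 fit of group over 44 embryos, WT and HET1 litters 1 fit of group by litter, and HOM against HET2 and the litters of that cross a fit of those embryos with genotype and litter. Embryos were the replicates. Since each cross had 2 litters, and each WT or HET1 litter held a single group, p-values measure the spread between embryos of few litters. Correlations used 100000 two-sided permutations within litters. The scripts were tested on simulated data.

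All 10 members were named. From each list the 3 genes of highest mean level were named, with those called in HOM against WT or HET2 and the 3 called genes with the largest difference in HET1 or HET2 against WT. The same rule named the 3 genes most alike to Hsf1 and to Hspa1b, which their correlations select, and Dppa2 and Dppa4 as the targeted genes. Names outside it (Hspa13, the marker Ovgp1, and the genes sharing or overlapping sequence) were chosen after their values were seen. Members and lists were chosen with earlier results of these data known. Limits given for a count of 0 reflect counting error alone, as the reads carry no molecular identifiers and may be copies of 1 molecule. Alternatives changed the floor, pseudocount, filter, scaling, test (voom on recovered reads), weights, depth, litter terms and embryos used. Annotation was GENCODE for GRCm38, promoter sequence was RefSeq, and figures were drawn with matplotlib 3.10.9.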

Additional observations from a re-analysis of the deposited data

How the results depend on the processing

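Of the 10 members, 2 were called in HET1 against WT, and with other settings there were 1 without the filter on low values and 0 with total reads as a covariate, with only embryos of at least 500000 reads, with a random effect for litter and with each litter averaged to 1 value. Leaving out 1 litter gave 0 to 4 (4 without the first HET1 litter, 0 without the second or without the first WT litter, and 1 without the second WT litter). Between the HET1 litters 4 were called, and 1 with only embryos of at least 500000 reads. Over all genes 868 were called in HET1 against WT, against 1792 without the floor, 307 with embryos of at least 500000 reads, 0 with each of total reads, random litter effects and litter averages (1706, 1010 and 272 at an unadjusted p under 0.05 in limma), 2563 without the first HET1 litter, 5 without the second and 136 without the first WT litter. The cause was not tested.

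The mating numbers only name litters, except in HOM against HET2, which are littermates. With the mating number as a replicate block, 2 members were called in HET1 against WT and 0 in HET2 or HOM against WT, and Hspa1b in HOM against WT was -0.030. Without the block in HOM against HET2, 0 members were called and Hspa1a was -0.27. Litter differences over 6919 genes correlated at -0.82 between the crosses of maternal knockout females, -0.45 between the cross with Dppa2/4+/- males and the control cross, and 0.45 between the other two. These differences had no genotype term, so in the cross with Dppa2/4+/- males they mix litter with genotype. With the numbers of the Dppa2/4+/- male litters crossed, a pairing chosen after seeing the data, calls over all genes were 2 in HET2 and 81 in HOM against WT, against 6 and 12 with the block as numbered.

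Directions turned for uncalled differences. With embryos centred on their median, Hsp90ab1 was -0.057 in HET1 against WT, Hspa1a -0.096, Hspa5 -0.17 and Hspe1 -0.032 in HOM against WT, Hspd1 -0.026 in HOM against HET2, Hsf1 0.19, Hsp90aa1 0.18 and Hspd1 0.16 between HET1 litters, and Hspa5 -0.032 between litters of Dppa2/4+/- males. With total reads as a covariate, Hsp90ab1 was -0.30 and Hspb1 -0.017 in HET1 against WT. With at least 500000 reads, Hspd1 was 0.070 in HET1 against WT, Hspa1b -0.057 in HOM against WT, Hsf1 0.0041 and Hspd1 0.39 between HET1 litters, and Hspa5 -0.0013 between litters of Dppa2/4+/- males. With litter means, Hspa1a was -0.067 in HET2 and Hspa1b -0.018 in HOM against WT. With log2(RPM + 1), Hspa1b was -0.063 in HOM against WT, and Hsf1 -0.0092 and Hspb1 -0.078 between WT litters. With voom, Hspe1 was 0.029 in HOM against HET2, Hsf1 -0.13 and Hspa1b 0.21 between WT litters, and Hsf1 0.17 between litters of Dppa2/4+/- males. With array weights these were 0.13 for Hspe1, -0.061 for Hsf1 between WT litters and 0.020 for Hsf1 between litters of Dppa2/4+/- males. Without the floor, Hspa1b was 0.22 between WT litters. The relation of Hspa1a and Hspa1b had r of 0.093 without the floor, 0.050 without centring on group and litter and 0.12 with embryos centred on their median, and that of Hsf1 and Hspa1b was 0.033 without centring on group and litter.

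Leaving out 1 litter, or 1 HET2 embryo, turned some directions. The lowest and highest values were in HET1 against WT -1.17 and 0.056 for Hspa5, -0.95 and 0.23 for Hspa8, -0.38 and 0.70 for Hsp90ab1, -0.71 and 0.033 for Hspd1, -0.11 and 1.23 for Hspe1, -0.017 and 1.76 for Hspb1. In HET2 against WT -0.44 and 0.68 for Hsf1, -0.70 and 0.69 for Hspa1a, -0.67 and 0.049 for Hspa8, -0.38 and 0.19 for Hsp90aa1, -0.75 and 0.11 for Hspb1. In HOM against WT -0.075 and 0.63 for Hspa1a, -0.50 and 0.38 for Hspa1b, -0.13 and 0.24 for Hspa5, -0.13 and 0.91 for Hspa8, -0.39 and 0.97 for Hsp90ab1, -0.54 and 0.19 for Hspd1, -0.29 and 1.89 for Hspb1. In HOM against HET2 -0.077 and 1.39 for Hsf1, -0.061 and 0.63 for Hspa1a, -0.077 and 0.46 for Hspd1, -0.54 and 0.15 for Hspe1. In the second against the first litter of Dppa2/4+/- males -0.11 and 0.35 for Hsf1.

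No read was found for Hspa1a in 7 and for Hspa1b in 10 embryos, and a count of 0 allows up to 3 reads there.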
